A study of Mus musculus with 28 samples.

Results

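The cytosolic ribosome is built from a small 40S and a large 60S subunit, and the genes described here encode its proteins. They were taken from the count table by symbol, as every row named Rpl or Rps followed by a number and at most a letter with a further number, together with Rplp0, Rplp1, Rplp2 and Rpsa, and without names that mark a pseudogene. The rule used no measured value and gave 84 of the 32594 rows, 33 for the 40S and 51 for the 60S subunit. Of these, 77 are the standard subunit genes and 7 are paralogs of them (Rpl3l, Rpl10l, Rpl39l, Rpl22l1, Rpl7l1, Rps27l and Rps4l). The members lie on 19 chromosomes, 4 of them on the X chromosome (Rpl10, Rpl36a, Rpl39 and Rps4x).

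RNA was sequenced from whole pituitary glands of 28 C57BL/6J mice that were 8 weeks old when they arrived, 16 females and 12 males, with 4 treatments per sex. Control mice stayed in the home cage without restraint (4 females, 4 males), restraint mice were held for 20 min in a flat-bottomed restrainer (4 females, 2 males), PSD mice underwent 12 h of paradoxical sleep deprivation on columns standing in water (4 females, 3 males), and PSD+restraint mice received both (4 females, 3 males). Glands were collected 18 h after the end of sleep deprivation and, in restrained mice, 10 min after restraint. All mice, controls included, had been habituated to the sleep deprivation procedure, and the sources used here give no stage of the estrous cycle. Cages held 4 mice of the same sex, so sex and cage cannot be told apart. PSD mice shared a tank with their cage mates, while controls stayed in their home cages. The sources used here name no cage or tank for a mouse. Mice of a PSD group may thus share a cage and tank, and treatment cannot be told apart from these.

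Every ribosome needs a single copy of nearly all of the proteins of the standard genes, and these genes are active in every cell type. Their mRNAs start with a 5′ terminal oligopyrimidine tract (TOP), a run of C and T bases beginning with C at the very first transcribed position, through which the mTOR pathway and the RNA-binding protein LARP1 set how strongly they are translated. In the pituitary, endocrine cells rely on this translation machinery for the bulk production of growth hormone, prolactin and the POMC precursor. A change in ribosomal protein mRNA in a whole gland can come from fewer cells of a type or from less RNA per cell, and these cannot be told apart in bulk RNA.

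The start sites of 4 members show how the TOP motif looks in this family, and those of Rps26 and Rpl27 are given because Rps26 was the called member with the largest fold between the sexes and Rpl27 the only member called for PSD in all mice. Each line holds the 40 bases before the RefSeq start site and the first 20 bases from it, in build GRCm38.p6, 5′ to 3′ on the strand of the gene. Capitals mark the unbroken run of C and T bases that begins at the start site.
Rps6, chr4:86857348-86857407, minus strand: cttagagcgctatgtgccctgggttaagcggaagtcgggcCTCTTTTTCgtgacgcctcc
Rpl15, chr14:18270967-18271026, minus strand: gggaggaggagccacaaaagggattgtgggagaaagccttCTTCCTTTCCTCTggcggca
Rps27, chr3:90213629-90213688, minus strand: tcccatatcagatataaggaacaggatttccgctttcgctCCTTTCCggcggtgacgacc
Rps21, chr2:180257339-180257398, plus strand: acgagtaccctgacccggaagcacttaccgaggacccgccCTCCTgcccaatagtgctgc
Rps26, chr10:128626487-128626546, minus strand: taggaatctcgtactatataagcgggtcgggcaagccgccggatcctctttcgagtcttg
Rpl27, chr11:101442205-101442264, plus strand: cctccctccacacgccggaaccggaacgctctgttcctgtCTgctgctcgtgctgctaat

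RefSeq promoters were matched for 63 of the 84 members, with 75 start sites. At 13 of the 75 (17.3%), the first 5 transcribed bases were all C or T with C first, against 2.51% of 32851 mouse promoters. With the start allowed to lie within 5 bases of the annotated position, the shares were 41.3% and 18.3%, and Rps26 counts among these although its annotated first base is a G. The letters CCGGAAG, a core recognised by ETS factors such as GABPA, occurred on either strand in 36% of the members' 300-base promoters and in 8.86% of all promoters. ATGGCGGC, a YY1-type motif, occurred in 6.67% against 2.24%, and TATAAA in 9.33% against 13.6%. These matches describe the letters in the windows and not the binding of a factor.

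The members took 1.2% to 1.6% of all counts of a mouse. In the mouse with the fewest counts, PSD+restraint female 1, the share was 1.39% (95% Wilson interval 1.38% to 1.39%, which covers counting error only). Levels between genes were compared in TPM, which divides counts by mean annotated transcript length and scales every library to the same total. The highest mean levels over the 28 mice were those of Rpl41, the smallest 60S protein, at 2453 TPM (range 2093 to 2773), and of Rps27, a zinc finger protein of the 40S subunit, at 1723 TPM (1372 to 2086). They were followed by the stalk protein gene Rplp1 at 1336 TPM, Rps15 at 1190.1 TPM and Rpl4 at 1049 TPM. The range of Rpl41 lay wholly above that of Rps27, while Rps27 overlapped with Rplp1 (1049.9 to 1711 TPM) and Rplp1, Rps15 and Rpl4 overlapped with each other.

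At the other end, Rpl9 stood at 20.2 TPM and Rpl26, a standard 60S gene, at 1.69 TPM (0.733 to 3.36), with 6 to 43 counts per mouse. The value for Rpl26 is far below that of every other standard gene, so it is uncertain as a level of its mRNA, and the cause was not tested. The heart and muscle paralog Rpl3l was at 0.215 TPM with 148 counts over all mice, and Rpl39l, known from testis, at 0.146 TPM with 58 counts and no count in 9 mice. Rpl10l, the testis paralog of the X-linked Rpl10, had no count in any of the 28 mice. Of the 83 members whose transcripts could be checked, 19 shared at least 50% of their 76-base windows with another annotated gene, and 4 shared none (median 27.7%). Reads from such windows may have been dropped or split, so the absolute levels of Rpl10, Rpl36a, Rps4x, Rpl23a, Rpl3, Rps3a1 and the other genes in this class are uncertain.

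**Figure D1:**
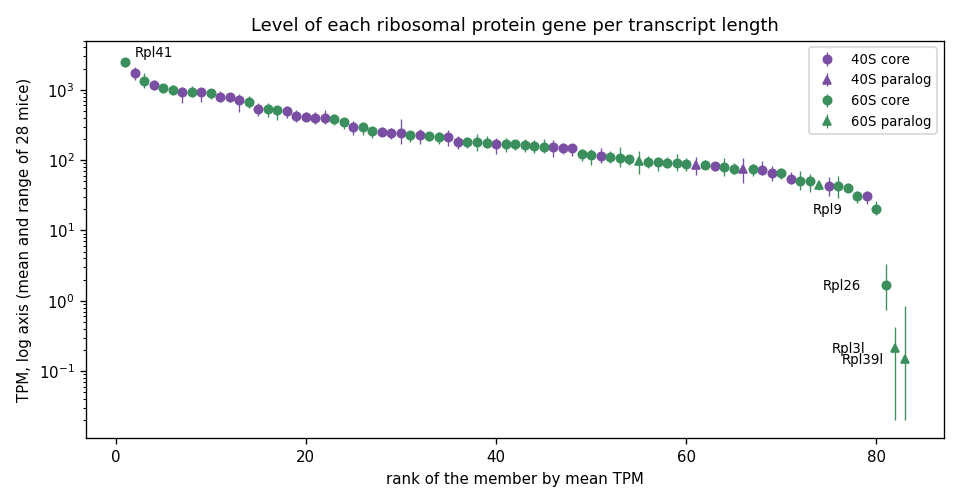
Mean TPM (log axis) of each member with counts, ranked from highest to lowest, with the range over 28 mice; circles are standard genes, triangles paralogs, purple 40S and green 60S, and ranges that reach 0 are drawn down to 0.02. Rpl41 leads at 2453 TPM and all but 3 of the members drawn lie above 20 TPM, while Rpl26, Rpl3l and Rpl39l lie below 2 TPM and Rpl10l, at 0, is not drawn.

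The summed level of the members was highest in control and restrained females. In CPM, counts relative to a library size scaled by TMM factors, female controls held 13881, 16034, 13460 and 15853 CPM of ribosomal protein transcripts, and female restraint mice 15666, 13586, 15387 and 16851 CPM. Female PSD mice held 12478, 13481, 13402 and 12947 CPM, and female PSD+restraint mice 14507, 13125, 13274 and 14904 CPM. Among males, controls ranged from 12500 to 13332 CPM, PSD mice from 12225 to 13055 CPM and PSD+restraint mice from 12418 to 13319 CPM, and the 2 restraint mice had 11868 and 12303 CPM. The female control and restraint groups lie wholly above the male groups of the same treatment, whereas the sexes overlap in PSD and in PSD+restraint. Within the female controls, mice 2 and 4 stand above the other 2.

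**Figure D2:**
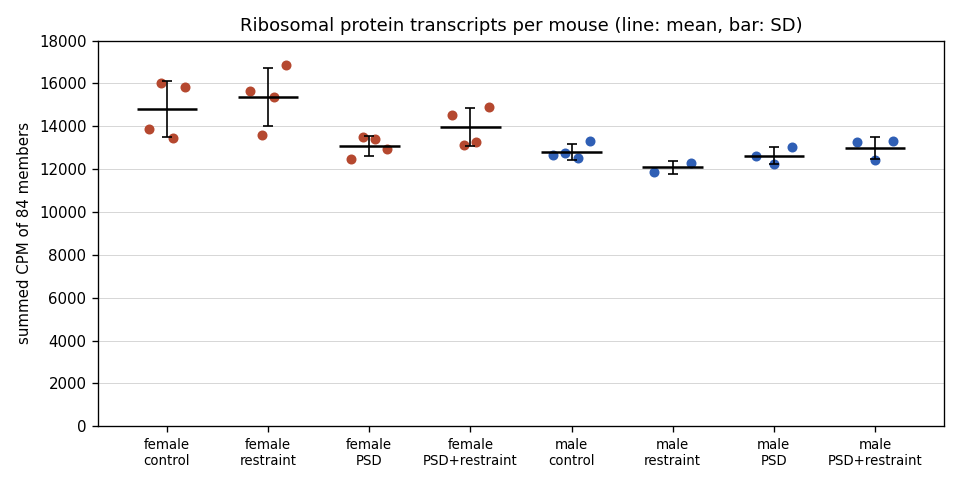
Summed CPM of the 84 members (vertical axis, from 0) for each mouse by group, with group mean (line) and SD (bar); females are red and males blue. Female controls (mean 14807 CPM) and restrained females (15373 CPM) lie highest, female PSD mice (13077 CPM) lie close to the males, and restrained males (12085 CPM, n = 2) lie lowest.

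The ratio of summed 40S to summed 60S CPM was 0.775 ± 0.0193 (SD, n = 28 mice) and ranged from 0.732 to 0.81. Its group means lay between 0.763 in female controls and 0.791 in male PSD mice, and these 2 groups overlapped, since the highest female control (0.79) lay above the lowest male PSD mouse (0.786).

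**Figure D3:**
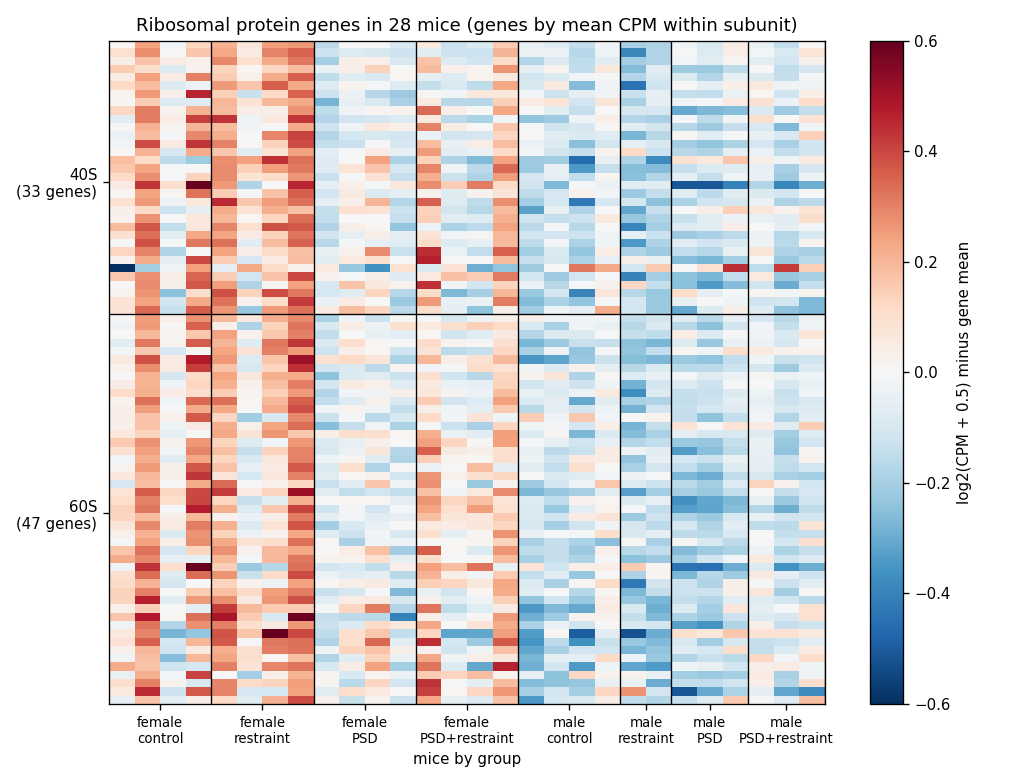
Log2(CPM + 0.5) minus the gene's mean over 28 mice (colour, from -0.6 to 0.6) for the 80 members with a mean above 5 CPM, 33 of the 40S and 47 of the 60S subunit, drawn from top to bottom by mean CPM within subunit, with mice side by side by group. Red prevails in female controls 2 and 4 and in most restrained females, blue in the male groups, and the PSD females are pale; Rps26 and Rpl27 are dark blue in PSD males.

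Whether pituitary expression differs between the sexes was tested with all mice in a single model, with terms for sex, PSD, restraint and their interaction (the quasi-likelihood test of edgeR, with p-values adjusted over 18936 genes by the Benjamini-Hochberg method). Ribosomal protein genes were higher in females as a family in this model, which fits a single sex difference for all treatments. Of 82 members tested, 61 were higher in females at an adjusted p of at most 0.05 and none was lower, while 17.7% of all genes were higher and 16.7% lower. The median log2 difference of the members was 0.19, against 0.01 for all genes, and 79 of 82 were fitted above 0. Most differences were small. With a log2 difference of at least 0.322 required as well, which is the rule for a called gene from here on, 3 members were called (3.66%), where 14.9% of all genes were called. These 3 were Rps26, Rplp1 and Rpl39. Without PSD male 1 or PSD male 3, 5 members were called. Within single treatments, compared further on, the share of members that passed varied. By adjusted p, 36.6% of members were higher in controls, 56.1% in restraint, 4.88% in PSD and 7.32% in PSD+restraint. The shares of all genes were 7.43%, 4.84%, 6.98% and 2.36%. Such shares do not test whether the sex difference varied with treatment. In the direct tests of each treatment against control, given further on, no member passed.

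Rps26, a 40S protein near the mRNA exit channel, had 105, 137, 109 and 185 CPM in female controls, 122, 89.7, 102 and 140.0 CPM in restraint, 97.7, 104, 101 and 106 CPM in PSD and 124, 113, 126 and 110.0 CPM in PSD+restraint females. Males had 93.8, 84.7, 101 and 98.9 CPM in controls, 96.9 and 96.8 CPM in restraint, 71.1, 71.1 and 76.6 CPM in PSD and 90.0, 77.3 and 82.96 CPM in PSD+restraint. Females were higher by 0.44 ± 0.07 on the log2 scale (SE), with an adjusted p of 1.72e-05. The sexes did not overlap in controls, PSD or PSD+restraint, but restrained female 2 (89.7 CPM) lay below both restrained males. Rps26 shares 30.9% of its 76-base windows with 3 other genes.

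Rplp1, which with Rplp0 and Rplp2 forms the stalk that recruits elongation factors, had 428, 537, 426 and 574 CPM in female controls against 323, 330.4, 352 and 377 CPM in male controls. In restraint it had 493, 389, 463 and 587 CPM in females and 345 and 342 CPM in males, and in PSD 439, 447, 433 and 361 CPM in females and 353, 349 and 371 CPM in males. In PSD+restraint the values were 473, 422, 439 and 471 CPM in females and 405, 376 and 378 CPM in males. Each treatment except PSD separated the sexes fully, and PSD female 4 (361 CPM) fell within the male range. The log2 difference was 0.36 ± 0.06 (adjusted p = 2.36e-05). The other stalk genes also differed by adjusted p, Rplp0 by 0.26 (adjusted p = 0.000567) and Rplp2 by 0.20 (adjusted p = 0.0123).

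Rpl39, an X-linked 60S protein of the peptide exit tunnel, had 32.3, 39.1, 28.3 and 35.0 CPM in female and 23.7, 27.3, 23.5 and 27.7 CPM in male controls. Its range was 30.1 to 39.4 CPM in female and 25.2 to 25.9 CPM in male restraint mice, 26.8 to 38.8 CPM in female and 26.3 to 28.6 CPM in male PSD mice, and 26.1 to 41.6 CPM in female and 27.6 to 29.0 CPM in male PSD+restraint mice. The sexes were apart in controls and restraint and overlapped in the PSD groups. The fitted difference was 0.33 ± 0.07 (adjusted p = 0.000585), just over the fold threshold, and in 21 of 28 fits with a mouse left out it stayed called.

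The remaining X-linked members did not share a pattern. Rpl36a differed by 0.29 (adjusted p = 0.00293) and Rpl10, at the peptidyl transferase centre, by 0.16 (adjusted p = 0.00154). Rps4x, whose human counterpart is known to escape X inactivation, had a fitted difference of -0.01 ± 0.05 (adjusted p = 0.91). The median of the 4 X-linked members was 0.23 and that of the 78 tested autosomal members 0.19.

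Some members are also known for roles outside the ribosome. Rpl5 and Rpl11, which bind MDM2 and so link ribosome assembly to p53, differed by 0.24 (adjusted p = 1.2e-05) and 0.22 (adjusted p = 0.000545). Rps6, the S6 kinase substrate, differed by 0.19 (adjusted p = 0.000268), Rps27a, made as a fusion with ubiquitin, by 0.23 (adjusted p = 0.00409), Rps3, also a DNA repair enzyme, by 0.13 (adjusted p = 0.0275), and Rpsa, known as the laminin receptor precursor, by 0.13 (adjusted p = 0.0484). Rpl13a, a common reference gene and the subunit of the GAIT translational silencing complex, was fitted at 0.08 (adjusted p = 0.216). Rpl3 at 0.08 (adjusted p = 0.152) and Rpl7 at 0.05 (adjusted p = 0.379) also did not pass.

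Counts and medians were also taken by kind of member. By adjusted p, 23 of 33 tested 40S genes and 38 of 49 tested 60S genes were higher in females (medians 0.17 and 0.20). Of the 19 members with at least 50% shared windows, 15 were higher (median 0.19), beside 46 of the 62 others with a value (median 0.19). Of the 13 members with a TOP tract exactly at the annotated start 11 were higher (median 0.19), beside 36 of 48 with a promoter but no such tract (median 0.20). Genes other than members with transcripts under 600 bases had a median of 0.10, and the 20 members of that length a median of 0.21.

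Female and male mice were then compared within each treatment in a model with a mean for every group, a comparison added after the data were seen. In controls 30 of 82 members were higher in females by adjusted p and none lower (7.43% of all genes higher), with a median of 0.22. In restraint 46 were higher and none lower (4.84% of all genes higher), with a median of 0.35. In PSD 4 were higher (6.98% of all genes), with a median of 0.09, and in PSD+restraint 6 (2.36% of all genes), with a median of 0.13. No member was lower in either. At the rule with the fold threshold 11, 40, 1 and 2 members were called, all higher in females, where 4.94%, 3.77%, 5.44% and 1.92% of all genes were called higher. Groups of both sexes did not overlap, with females higher, for 27 members in controls (8.95% of all genes), 62 in restraint (14.6%), 21 in PSD (12.2%) and 26 in PSD+restraint (9.75%). In PSD 5 members did not overlap with females lower (11.8%).

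The restraint comparison rests on 2 males, and a fit without either of them takes the spread of the remaining male from the other groups. Without restrained male 2 the number of members called in it was 3, and without restrained male 3 it was 19. In controls, 11 members were called, and this number was 3 without female 2, 4 without female 4, 17 without female 1, 23 without female 3 and 18 without male 4. In the smaller sets, the only member called in PSD was Rps26 (0.49 ± 0.14, adjusted p = 0.0264), and those called in PSD+restraint were Rps26 (0.50 ± 0.14, adjusted p = 0.0413) and the 60S gene Rpl23 (0.38 ± 0.10, adjusted p = 0.0236). In PSD no member was called without PSD male 1 or 2. In PSD+restraint 0 were called without PSD+restraint female 1 or without PSD+restraint male 2 or 3, 4 without PSD+restraint male 1, and 1 without PSD+restraint female 4, restrained male 2 or 3 or PSD male 2.

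In controls the members with the smallest p were Rplp1 (0.51 ± 0.10, adjusted p = 0.00127), Rpl10a, Rpl7l1, Rplp0, Rps24, Rpl38, Rps26 and Rpl23, with differences of 0.33 to 0.51. Rpl38, a 60S protein tied to the translation of Hox mRNAs, differed by 0.34 and Rps24, a 40S gene mutated in Diamond-Blackfan anaemia, by 0.35. The members with the smallest p in restraint included Rpl36, Rps9, Rps14, Rpl10a, Rpl6, Rpl22 and Rps25.

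**Figure D4:**
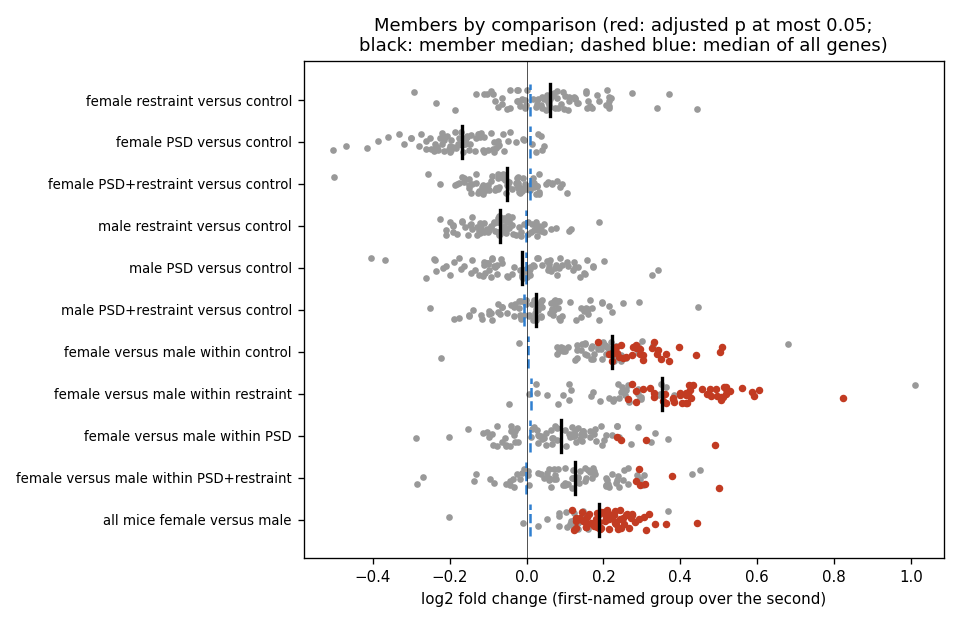
Log2 fold change of each tested member (points, spread vertically for sight) in 11 comparisons, red at an adjusted p of at most 0.05; the black bar is the member median and the dashed blue bar the median of all tested genes, and Rpl3l, with hardly any counts, is not drawn. The member median lies at 0.19 for females against males in all mice, at 0.35 within restraint and at -0.17 for PSD in females, while the median of all genes stays within 0.02 of 0.

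Sleep deprivation was compared with home cage control in each sex. In females no member passed the test, and by the same rule 0.0277% of all 18059 genes were called. Most members were fitted on the low side. Of 81 tested, 75 were fitted below 0 (48.4% of all genes), the median was -0.17 against 0.01 for all genes, and 34 had an unadjusted p under 0.05 with lower values (9.14% of all genes) and 0 with higher values (10.6%). For 19 members every PSD female lay below every control female (4.78% of all genes), and for 0 members above (3.83%). DESeq2 called 2 members, Rpl10a and Rpl12, both lower. The share of all genes that DESeq2 called is not given here, and the edgeR share cannot stand in for it. With each female left out in turn, no member was called and the median stayed between -0.23 and -0.12.

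Rpl10a, a 60S protein of the L1 stalk, had the smallest p. Its values were 80.0, 97.4, 82.6 and 99.8 CPM in female controls and 72.1, 68.2, 70.1 and 68.4 CPM in female PSD mice, a log2 difference of -0.36 ± 0.10 (adjusted p = 0.127). All PSD females lay below all control females. In males the same gene had 62.7, 64.5, 65.9 and 72.2 CPM in controls and 65.8, 64.9 and 68.6 CPM in PSD, with overlapping groups and a difference of 0.01 ± 0.06 (adjusted p = 0.98).

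Rpl12, a 60S protein at the base of the stalk, had 37.1, 46.2, 33.2 and 41.6 CPM in female controls and 30.0, 29.5, 29.4 and 24.8 CPM in female PSD mice (log2 -0.47 ± 0.14, adjusted p = 0.128). Rpl30 had 42.3, 47.5, 38.3 and 42.7 CPM against 34.9, 35.6, 38.1 and 31.8 CPM (log2 -0.28 ± 0.08, adjusted p = 0.136). Both genes separated the groups completely, and neither passed the correction. Rpsa was fitted at -0.33 (adjusted p = 0.136), whereas Rplp2 (0.04), Rps27a (-0.03), Rps27 (-0.01) and Rpl22 (0.03) lay close to 0.

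In male mice members were fitted in both directions, again with no member called at a background of 0.00547% of 18271 genes. The median was -0.01 and 44 of 81 members were fitted below 0. At an unadjusted p under 0.05, 14 members were lower (4.34% of all genes) and 5 higher (4.51%). PSD and control males did not overlap for 18 members with lower values in PSD (5.73% of all genes) and for 5 with higher values (4.69%). DESeq2 gave an adjusted p of at most 0.05 for Rpl23a, Rpl27, Rps26 and Rps3a1, all lower, and for Rps21, higher. Of these, 2, Rps26 and Rpl27, passed its fold threshold. Here too the share of all genes passing in DESeq2 is not given, and the edgeR share does not apply.

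Rps26 in male PSD mice, at 71.1, 71.1 and 76.6 CPM, lay below all 4 male controls (84.7 to 101 CPM), with a log2 difference of -0.37 ± 0.07 (adjusted p = 0.135). Rpl27, a 60S protein, had 47.0, 40.8, 45.5 and 45.7 CPM in male controls and 32.5, 32.4 and 36.1 CPM in male PSD mice (log2 -0.40 ± 0.08, adjusted p = 0.136). In females Rpl27 had 43.7, 60.2, 47.6 and 73.7 CPM in controls and 41.0, 41.6, 40.05 and 45.3 CPM in PSD mice (log2 -0.42 ± 0.15, adjusted p = 0.158). The male groups were fully apart, and among females the highest PSD mouse overlapped with the lowest control.

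On the high side in PSD males were Rps21, a small 40S protein, and the paralog Rpl22l1. Rps21 had 149, 150.0, 126 and 167 CPM in male controls and 185, 181 and 194 CPM in male PSD mice (log2 0.34 ± 0.08, adjusted p = 0.23). Rpl22l1, the paralog of Rpl22, had 25.5, 32.5, 22.8 and 30.7 CPM against 34.6, 33.8 and 36.2 CPM (log2 0.33 ± 0.10, adjusted p = 0.403). For both genes every PSD male lay above every control male. Between the same groups, the summed neurointermediate lobe markers listed further on were 67652 to 104157 CPM in PSD males and 11815 to 65313 CPM in control males, and the summed red blood cell markers 425 to 1591 CPM and 1639 to 2995 CPM, neither overlapping. Pomc made up most of the lobe sums, at 65869 to 101633 CPM in PSD males and 11423 to 63528 CPM in control males. The mean log2 CPM of the other 4 lobe markers overlapped, at 7.55 to 8.06 in PSD males and 5.58 to 7.69 in control males. The part of the red blood cell markers in the male results was not tested. The 8 other fits in males include the neurointermediate lobe score described further on as a term. Over these fits Rps26 lay at -0.3756 to -0.3209, Rpl27 at -0.4491 to -0.3619 and Rpl23a at -0.2746 to -0.236 for PSD in males. These ranges do not show the fit with the score apart, and its values for Rps21 and Rpl22l1 are not given here.

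With both sexes in a single model, a few members were lower after PSD. Rpl27 was the only member called, where 0.671% of all genes were called (log2 -0.41 ± 0.10, adjusted p = 0.0472), and 5 passed by adjusted p alone, all lower, where 0.217% of all genes were lower. Beside Rpl27 these were Rpl23a (-0.25 ± 0.05, adjusted p = 0.0314), Rpl3, a protein of the peptidyl transferase region (-0.25 ± 0.06, adjusted p = 0.0443), Rps3a1 (-0.21, adjusted p = 0.048) and Rpl23 (-0.26, adjusted p = 0.0481). Of 82 members 69 were fitted below 0 (48% of all genes), the median was -0.11 against 0.01, and 31 were lower at an unadjusted p under 0.05 and 0 higher (8.81% and 8.76% of all genes). Rpl27 was called in 12 of 28 fits with a mouse left out. No member was called without female control 2 or 4, restrained female 1, PSD female 1, 2 or 3, PSD+restraint female 1 or 2, male control 1, 3 or 4, restrained male 3, PSD+restraint male 1, or any PSD male. It was 2 members without female control 1 or 3, restrained female 2, 3 or 4, PSD female 4 or male control 2. Rpl27 was called in 4 of 8 other fits, and no member was called with library size alone, with no filter on low counts, with the replicate number as a block, or with the neurointermediate lobe score described further on as a term.

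Rpl23a, which lies near the tunnel exit, had 81.0, 92.7, 81.0 and 99.5 CPM in female controls and 75.1, 75.7, 75.9 and 72.1 CPM in PSD females. In males the values were 71.1, 67.5, 76.6 and 75.5 CPM in controls and 58.3, 60.4 and 62.3 CPM in PSD. Within each sex every PSD mouse lay below every control. In PSD+restraint mice it stood at 79.8 to 90.5 CPM in females and 64.4 to 72.9 CPM in males, overlapping with the controls.

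**Figure D5:**
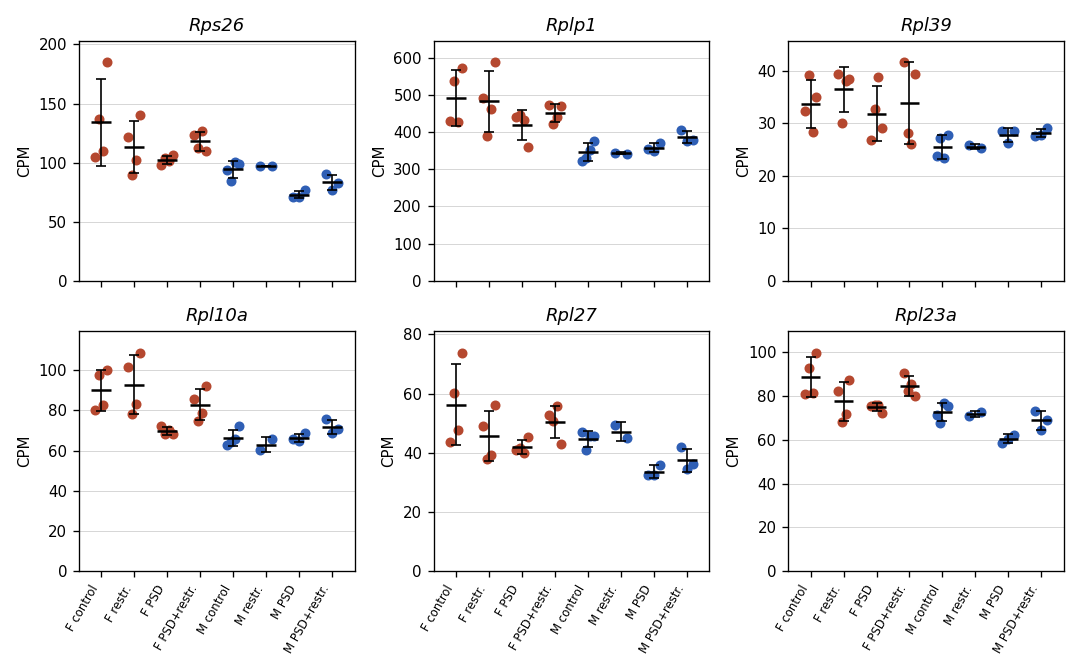
CPM (vertical axes from 0) of 6 members in every mouse by group, with group mean (line) and SD (bar); F and red are females, M and blue males. Rps26, Rplp1 and Rpl39 are those called between the sexes, Rpl10a stands at 90.0 ± 10.1 CPM in control and 69.7 ± 1.81 CPM in PSD females, and Rpl27 and Rpl23a have their lowest means in male PSD mice (33.7 ± 2.07 and 60.4 ± 1.996 CPM).

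Restraint alone left no member called in females (0.543% of all genes called), males (0.296%) or all mice (1.14%), and DESeq2 called none either. The member median was 0.06 in females and -0.07 in males, against 0.01 for all genes in females and a median within 0.01 of 0 in males. At an unadjusted p under 0.05, 9 members were higher and 1 lower in restrained females (5.6% and 4.18% of all genes), and 0 were higher and 8 lower in restrained males (3.01% and 2.06%). In all mice 1 was higher and 1 lower, where 5.61% and 4.68% of all genes were. In females the leading genes were Rpl22l1 and Rps21. Rpl22l1 had 33.8, 39.6, 26.6 and 27.4 CPM in female controls and 42.1, 36.3, 50.9 and 42.7 CPM in restrained females (log2 0.44 ± 0.15, adjusted p = 0.304), which overlapped. Rps21 had 197, 188, 156 and 149 CPM in female controls and 210.1, 205, 235 and 218 CPM in restrained females (log2 0.34 ± 0.12, adjusted p = 0.335), and every restrained female lay above every control. Of the 72 oxidative phosphorylation genes, 29 were higher at an unadjusted p under 0.05 in the same mice (median 0.24).

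Genes other than members with transcripts under 600 bases also had a higher median in restrained females, at 0.10, beside -0.01 above 2400 bases. In males Rps25 was among the leading genes (log2 -0.21 ± 0.07, adjusted p = 0.686), on 2 restrained mice. Restrained and control males did not overlap for 15 members with lower values (6.89% of all genes) and 1 with higher values (6.34%).

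After PSD followed by restraint no member passed. No member was called in females (2.2% of all genes), males (2.56%) or all mice (5.46%), and none by DESeq2. Medians were -0.05 in females, 0.02 in males and -0.02 in all mice. At an unadjusted p under 0.05, 3 members were lower and 0 higher in females (10.5% and 9.7% of all genes), 3 lower and 10 higher in males (8.32% and 9.09%), and 3 lower and 0 higher in all mice (13.3% and 12.3%). The smallest p in females was that of Rps2 (log2 -0.26 ± 0.12, adjusted p = 0.231), at 257, 221, 217 and 244 CPM against 237, 307, 255 and 329.5 CPM in controls, which overlapped. In males the smallest p were those of Rpl27 (-0.25 ± 0.08, adjusted p = 0.122), Rps21 (0.25 ± 0.08, adjusted p = 0.13) and Rpl22l1 (0.29 ± 0.11, adjusted p = 0.172), and in all mice that of Rpl4 (-0.13 ± 0.05, adjusted p = 0.0965). Against restraint alone, PSD+restraint left no member called in all mice (0.0951% of all genes; none by DESeq2), with 1 lower at an unadjusted p under 0.05, Rpl4, and 0 higher (7.54% and 5.98% of all genes), and a median of -0.04.

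The interaction of PSD and restraint asks whether restraint acts otherwise after sleep deprivation. No member and no other gene passed (0% of 18936 genes, quasi-likelihood test of edgeR), and DESeq2 called no member. At an unadjusted p under 0.05, 11 members were positive and 0 negative, where 1.8% and 2.13% of all genes were. The smallest p was that of Rpl23a (0.31 ± 0.08, adjusted p = 0.9999). In the same model Rpl23a was fitted at -0.13 for restraint (adjusted p = 0.413) and at -0.07 for PSD+restraint (adjusted p = 0.482), beside the -0.25 for PSD.

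Differences of the responses between the sexes were tested in the model with a mean for every group. No member passed for restraint, PSD or PSD+restraint (0% of all genes in each), and DESeq2 called none. For restraint 14 members had a more positive response in females at an unadjusted p under 0.05 and 0 a more negative one (2.35% and 1.9% of all genes), with a member median of 0.14, led by Rps14 (0.40 ± 0.13), Rpl14 (0.34 ± 0.12) and Rpl22l1 (0.64 ± 0.22), each with an adjusted p of 0.9998. For PSD 14 were more negative in females and 0 more positive (4.66% and 6.1% of all genes), with a median of -0.15, led by the paralog Rpl7l1 (-0.31 ± 0.11, adjusted p = 0.349) and by Rpl10a (-0.37 ± 0.13, adjusted p = 0.362). For PSD+restraint 3 were more negative and 0 more positive (3.81% and 3.39%), with a median of -0.10. A difference between the sexes in the response of the members to PSD was thus not shown.

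Among the paralogs, 4 were expressed at levels within those of the family. For Rps4l the annotation used held no protein-coding transcript, so its shared windows could not be checked and its level is uncertain. Rpl22l1 stood at 97.9 TPM beside 167 TPM for Rpl22, Rps27l, a p53 target, at 85.3 TPM beside 1723 TPM for Rps27, Rpl7l1 at 44.4 TPM beside 389 TPM for Rpl7, and Rps4l at 75.2 TPM beside 497 TPM for Rps4x. Rpl7l1 was higher in females by 0.18 (adjusted p = 0.00409), while Rpl22l1 (0.15, adjusted p = 0.272), Rps27l (0.13, adjusted p = 0.153) and Rps4l (-0.20 ± 0.09, adjusted p = 0.0758) did not pass. Rps4l was the member with the lowest fitted difference, and it was lower in females at an adjusted p of 0.0156 when library size alone was used for scaling and of 0.0378 in counts thinned to the smallest library. It also passed without female control 4 (adjusted p = 0.0273), male control 1 (0.048), restrained male 2 (0.0395) or PSD+restraint male 1 (0.0483). In female PSD mice Rps4l (0.04) and Rpl22l1 (0.02) were not on the low side of the family, and Rps27l was at -0.09.

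Neighbouring gene groups of the translation machinery were counted in the same fits. Of 39 ribosome biogenesis genes (RNA polymerase I, nucleolar and assembly factors), 20 were higher and 1 lower in females by adjusted p, where 17.7% of all genes were higher and 16.7% lower, with a median of 0.19. Among them were Nop56, a box C/D snoRNP protein (0.63 ± 0.11, adjusted p = 3.69e-05), and the assembly factor gene Rrs1 (0.42, adjusted p = 1.61e-05). In PSD females 38 of the 39 were fitted below 0 (median -0.25) and 20 had an unadjusted p under 0.05 with lower values (9.14% of all genes) and 1 with higher values (10.6%), with none called. In PSD males their median was 0.03 and 0 were lower at that level (4.34% of all genes).

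Of 18 other genes with TOP mRNAs, chiefly elongation and initiation factors, 11 were higher in females and 0 lower by the same measure (median 0.14). Pabpc1, the poly(A)-binding protein, was called (0.38 ± 0.05, adjusted p = 3.73e-07). In PSD females their median was -0.13, and Eef1a1, which delivers tRNA to the ribosome, stood at -0.22 (adjusted p = 0.136). Of 76 tested mitochondrial ribosomal protein genes, 10 were higher and 2 lower in females, beside the same 17.7% and 16.7% of all genes (median 0.02), with a median of -0.09 in PSD females. Of 72 subunits of oxidative phosphorylation, taken as other short and abundant mRNAs, 7 were higher and 0 lower in females than in males (median 0.06), where 17.7% and 16.7% of all genes were, and their median in PSD females was 0.00.

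Other measures moved with these groups, and their part in the results was not tested except where a value is given. Total counts were 14024465 to 52948531 per mouse, and 3 of the 4 PSD females had 18035775 to 19532245 counts where female controls had 23077710 to 47530774. In counts thinned to the smallest library the member median for PSD in females was still -0.17, and 57 members were higher and 1, Rps4l, lower in females than in males by adjusted p. The 5 neurointermediate lobe markers (Pomc, Pcsk2, Pax7, Oacyl and Esm1) summed to 72048 to 168825 CPM in PSD females and 37835 to 70042 CPM in control females, and 4 of the 5 were higher at an unadjusted p under 0.05. Pomc made up most of these sums, at 70260 to 164445 CPM in PSD females and 36567 to 68145 CPM in control females. The mean log2 CPM of the last 4 markers named overlapped, at 7.76 to 9.02 in PSD females and 7.58 to 7.95 in control females. With this mean as a term, the member median was -0.14 for PSD in females, and 58 members were higher in females than in males.

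Markers of forebrain summed to 201 CPM in PSD female 1 and to at most 147 CPM elsewhere, and without that mouse the member median for PSD in females was -0.16. The same mouse had the highest sum of posterior lobe pituicyte markers, at 158 CPM against at most 84.5 CPM elsewhere. Its macrophage markers, at 162 CPM, were also the highest, against at most 148 CPM elsewhere. Of 7 macrophage markers, 7 were fitted above 0 in PSD females and 4 had an unadjusted p under 0.05, with none called. The 3 markers of dividing cells were lower in females than in males by adjusted p (median log2 -0.70). The 3 red blood cell markers were all fitted lower in females (median log2 -0.36), 1 of them by adjusted p, and summed to 1151 to 1528 CPM in female and 1639 to 2995 CPM in male controls, without overlap. The 2995 CPM were those of male control 1, the highest of all mice. That mouse also had the lowest neurointermediate lobe sum, 11815 CPM, against 51003 to 65313 CPM in the other male controls. Its mean log2 CPM of the lobe markers without Pomc was 5.58, against 7.42 to 7.69 in those controls. With each male left out in turn, the member median for PSD in males stayed between -0.04 and 0.01. The hormone genes that mark the tissue were abundant. Prl, for prolactin, had 96746 to 231705 CPM in females and 30866 to 45864 CPM in males (log2 2.04 ± 0.10, adjusted p = 1.25e-14), and Gh, for growth hormone, was lower in females (log2 -1.05 ± 0.12, adjusted p = 1.19e-07). In PSD females Prl had 96746 to 170264 CPM against 159082 to 231705 CPM in control females (log2 -0.67 ± 0.18, adjusted p = 0.115). The 9 endocrine markers together summed to 256382 to 365121 CPM in females and 242725 to 321624 CPM in males.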

How the data were processed

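Whole pituitary RNA of 28 mice was sequenced with paired-end reads of 76 bases from a stranded mRNA kit. The authors aligned the reads with MapSplice (build mm10) and assigned them to UCSC mouse genes using HTSeq 0.9.1 in its intersection-nonempty mode, and the deposited table holds raw counts per gene and mouse. The strand setting of the counting is not given in the sources used here. A second deposited table, of the same counts after division by size factors, was not used. Mice were grouped by sex and treatment from the sample labels. Same-group mice were compared as pairs by a chi-square of their counts, and in each of the 37 pairs it exceeded sampling noise (at least 6.43 per degree of freedom). The labels name no litter or batch. Total counts were 14024465 to 52948531 per mouse.

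The filterByExpr function of edgeR 4.0.16 kept 18059 genes in females, 18271 in males and 18936 in all mice, with 81, 81 and 82 members among them. They were tested with TMM factors and the edgeR quasi-likelihood test in R 4.3.3, adjusted over all genes tested by the Benjamini-Hochberg method. A called gene had an adjusted p of at most 0.05 together with a log2 fold change of 0.322 or more in either direction. A second rule used the adjusted p alone. The scripts were first tested on simulated counts. TPM used mean transcript lengths of GENCODE M21, found for 23032 genes, which may differ from the gene models of the authors. Shared windows are 76-base stretches of a transcript that also occur in another annotated gene. Promoters came from RefSeq (GRCm38.p6).

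The members, gene lists and rules were chosen with earlier results of these data known. Genes were named from those that a rule gives, and in several comparisons only some of these are named. The rule takes a fixed set (stalk, p53-linked, multifunctional and X-linked members, and paralogs with their parents), in each comparison the called members or the 8 with the smallest p, the 3 with the smallest p where fewer than 3 were called, and the 5 highest and lowest by TPM. Named beyond it, after their values were seen, were Rps3a1 and Rpl23 for PSD in all mice, Rps21 for PSD in males, members called by DESeq2, and the promoters printed. Alternatives were DESeq2 1.42.0, its size factors in edgeR, library size alone, no filter on low counts, a mean TPM of at least 1, a score of neurointermediate lobe markers as a term, the replicate number as a block, each mouse left out and no fold threshold. Thinning to the smallest library and the comparison of the sexes within each treatment were added after the data were seen. A gene that the rule for named genes gives is not reported here.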

Additional observations from a re-analysis of the deposited data

Results flagged for a closer look

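In groups of 4 mice, 5 values stood apart from the rest of their group by Dixon's criterion at its 95% level, out of 130 sets of values tested. Chance alone gives this in about 1 of 20 sets. Rpl39 was at 30.15 CPM in restrained female 2, with the nearest other mouse at 38.01 CPM. Rplp1 was at 360.5 CPM in PSD female 4, with the nearest at 433 CPM, and this is the value by which the sexes overlapped in PSD. Rpl4 was at 1029 CPM in male control 1, with the nearest at 993 CPM. In PSD+restraint female 4, Rps14 was at 465 CPM with the nearest at 371 CPM, and Rpl7l1 at 59.5 CPM with the nearest at 54.6 CPM.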

How the results depend on the processing

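No named gene changed direction under the alternatives run. Of 2196 alternative values for 68 results on single named genes, 2107 kept their side of the threshold, 79 no longer passed and 10 newly passed. The 600 alternative member medians for 19 comparisons moved by less than the spread between mice (1 SD, 0.0902), but 3 medians close to 0 changed sign. That for PSD in males was -0.01 in the report, 0.0098 with library size alone, 0.0076 with the replicate block and 0.0094 without male control 4. That for PSD+restraint in males was 0.02 and became -0.0036 with the lobe score, and that for restraint in all mice was 0.02 and became -0.0002 without restrained female 1 and -0.0205 without restrained female 4. The limit of 0.0902 is larger than several of the medians, so a move below it does not show that these are stable. For restraint in females the median ranged from 0.0064 to 0.1149 with a mouse left out. Numbers of called members did move, and the cause was not tested. Shares of all genes in the report are those of the main fits, and no such share is given for the alternatives.

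For PSD in all mice (1 called), DESeq2 called 2, library size alone 0, no filter on low counts 0, the replicate block 0 and the lobe score 0, no fold threshold gave 5, and with a mouse left out it was 0 to 2. By adjusted p alone (5 in the report), it was 3 in thinned counts, 9 with DESeq2, 3 with its size factors, 1 with library size alone, 1 without the filter, 0 with the replicate block, 0 with the lobe score and 0 to 7 with a mouse left out. For PSD within a sex (0 called), DESeq2 called 2 in females and 2 in males.

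Between the sexes (3 called), library size alone gave 1, the lobe score 5, no fold threshold 61, and a mouse left out 2 to 5. Library size alone moved the median log2 difference of all genes to -0.05 and that of the members to 0.13, with 44 members higher and 1 lower by adjusted p. Within controls (11 called) library size alone gave 3, no fold threshold 30 and a mouse left out 3 to 23. Within restraint (40 called) library size alone gave 22 and a mouse left out 3 to 51. Within PSD (1 called) no fold threshold gave 4 and a mouse left out 0 to 1. Within PSD+restraint (2 called) DESeq2 called 4, the replicate block 1, no fold threshold 6 and a mouse left out 0 to 4.

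Mice with the same number in different groups did not deviate together. Correlations of their deviations were -0.364 to 0.36 over 24 pairs of females and -0.239 to 0.13 over 15 pairs of males, and 3 of 16 females and 2 of 12 males correlated best with their own number. With the replicate block 54 members were higher in females by adjusted p and 2 were called. The median share of counts taken by the members was 1.89% with the counts of Gh, Prl and Pomc left out of the total.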
